A study of Mus musculus with 16 samples.

Results

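Interferon-stimulated genes were followed in the retinas of wild-type mice and of mice without Nxnl1 after exposure to bright light. The set was a list of 47 mouse genes, chosen by name, and covered the regulators, sensors and antiviral effectors that interferons induce. Of these, 44 had a probe set assigned to that gene alone, and each gene was read from the brightest such probe set, as averaged across the 16 arrays. Members had to exceed log2 4 (intensity 16) on 2 or more arrays, and 37 members met it, against 10916 of 18193 genes of the whole array. Ifi44, Isg15 and Gbp4 had no probe set of their own in the annotation used. Another 7 members stayed under the limit, with highest levels of 2.22 for Oasl1, 2.33 for Oas1a, 2.25 for Mx1, 3.46 for Mx2, 2.23 for Dhx58, 2.44 for Zbp1 and 2.30 for Sp100, all on the log2 scale. Closest above the limit were Ifitm1, which exceeded log2 4 on 3 arrays, and Iigp1, which did so on 5.

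All animals were BALB/c, an albino strain, and were either wild type (Nxnl1+/+) or homozygous for the loss of Nxnl1 (Nxnl1-/-, here knockout). The Nxnl1 product, known as rod-derived cone viability factor, is a relative of thioredoxin that rods make. Both sexes were used in equal numbers, at 11 to 16 weeks of age, after rearing in cyclic light of 50 lux. Every mouse spent 16 h in darkness, 1 h under white fluorescent light of 50, 2500 or 5000 lux, and a further 24 h in darkness. Neural retina was dissected away from the pigment epithelium and its total RNA was hybridised to Affymetrix arrays. At 50, 2500 and 5000 lux there were 2, 3 and 3 arrays of wild type and 3, 3 and 2 of knockout. The labels call the arrays biological replicates without saying how many animals each held or which part of Nxnl1 was removed, so the p-values measure the spread between these arrays. The 50 lux arrays were the reference of each light response, and both responses of a genotype share them.

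Type I interferons act on the receptor Ifnar1/Ifnar2 and switch genes on through a complex that holds Stat2 and Irf9 and binds the interferon-stimulated response element (ISRE). Interferon gamma acts on Ifngr1/Ifngr2, and its target genes carry the gamma-activated site (GAS). The induced proteins sense foreign nucleic acid, block steps of viral replication or amplify the signal itself, and in the retina microglia, Müller glia and neurons are all able to answer interferon.

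The start regions of the members were searched for both elements, since the set is defined by the pathway that uses them. RefSeq windows of the build GRCm38.p6, from 250 bases before to 50 bases after each annotated start, were at hand for 35 of the 47 members. The ISRE was searched as GAAA, any 2 bases and GAAA on both strands. The GAS was searched as TTC, any 3 bases and GAA, which reads alike on both strands, and overlapping matches were all counted. An ISRE match lay in the windows of 16 of the 35 members (45.7%), compared with 1079 of all 27025 genes with windows of the same length (3.99%). A GAS match lay in 11 of the 35 (31.4%), compared with 2582 of 27025 genes (9.55%). One member with an ISRE match per role is shown, the one with the largest change at 2500 lux in wild type, together with Irf1, whose window held a GAS and no ISRE. Each is given 5′ to 3′ on the strand of its gene, and capitals mark the matches. Positions are counted from the annotated start, with -1 just before it. Stat2 (chr10:128270248-128270497, plus strand, positions -250 to -1) held its ISRE at -222 in the orientation of the opposite strand.
Stat2: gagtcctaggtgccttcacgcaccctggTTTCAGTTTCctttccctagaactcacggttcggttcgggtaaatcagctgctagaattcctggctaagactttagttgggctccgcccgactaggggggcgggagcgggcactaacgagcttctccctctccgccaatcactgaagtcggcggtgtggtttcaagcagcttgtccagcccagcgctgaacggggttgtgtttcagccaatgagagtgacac
Bst2 (chr8:71537473-71537722, minus strand, positions -250 to -1) had a GAS at -136 that ran into 2 overlapping ISRE matches at -130 and -124.
Bst2: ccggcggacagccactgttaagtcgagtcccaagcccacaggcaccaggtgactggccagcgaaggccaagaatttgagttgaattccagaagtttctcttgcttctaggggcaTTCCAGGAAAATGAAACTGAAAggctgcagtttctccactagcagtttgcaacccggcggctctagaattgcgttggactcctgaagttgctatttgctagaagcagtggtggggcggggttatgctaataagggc
Irgm1 (chr11:48871421-48871670, minus strand, positions -250 to -1) had 2 ISRE matches, at -30 and -24, that overlapped each other.
Irgm1: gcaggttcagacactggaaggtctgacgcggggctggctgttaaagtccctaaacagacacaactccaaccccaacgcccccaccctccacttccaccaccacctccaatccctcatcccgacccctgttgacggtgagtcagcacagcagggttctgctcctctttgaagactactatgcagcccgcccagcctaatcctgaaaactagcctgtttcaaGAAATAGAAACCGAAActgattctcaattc
Irf1 (chr11:53769764-53770013, plus strand, positions -250 to -1) had its GAS at -90.
Irf1: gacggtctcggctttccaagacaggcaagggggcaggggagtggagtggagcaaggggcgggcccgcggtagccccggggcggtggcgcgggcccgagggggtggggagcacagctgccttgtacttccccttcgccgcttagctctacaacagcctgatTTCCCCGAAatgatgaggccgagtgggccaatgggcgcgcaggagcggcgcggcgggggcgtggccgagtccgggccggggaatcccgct
Ifih1 had its ISRE after the annotated start, at 33, and 30 bases around it are shown (chr2:62646206-62646235, minus strand, positions 21 to 50).
Ifih1: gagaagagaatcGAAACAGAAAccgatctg

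The light response was set beside these matches as a description. Among kept members with a window, the median log2 change at 2500 lux in wild type was 2.91 in the 14 with an ISRE match (0.41 to 4.06) and 1.88 in the 16 without one (0.31 to 4.11). By role, and over listed members, an ISRE match lay in 1 of 9 regulators with a window, 4 of 8 sensors, 7 of 11 antiviral effectors and 4 of 4 interferon-induced GTPases. A match is a description of the sequence and not a measured binding site. Several members are direct neighbours in the genome, with no other protein-coding gene between them. These are Rsad2 and Cmpk2 on chromosome 12, Parp14, Dtx3l and Parp9 on chromosome 16, Ifit2 and Ifit3 on chromosome 19, Oasl2 and Oasl1 on chromosome 5, and Ifitm2, Ifitm1 and Ifitm3 on chromosome 7.

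The labels were checked with the targeted gene first. The Nxnl1 probe set lay between 5.64 and 7.61 log2 on the 8 wild-type arrays and between 2.21 and 2.92 on the 8 knockout arrays, so the genotypes did not overlap. Median intensity per array ran from 14.4 to 15.8, and the median of the 23320 tested probe sets from 7.30 to 7.39 log2. The intensities summed over the 8 measured photoreceptor markers were 120300 to 123400 in wild type and 113600 to 127000 in knockout at 50 lux, and 74520 to 97640 on the arrays at 2500 and 5000 lux. These markers of the labelled tissue were thus present in every group. In bulk RNA, a change in the number of cells of a type and a change in RNA per cell cannot be told apart, and this holds for every level below.

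Bright light raised most of the set in both genotypes. The median level of the 37 kept members was 3.55 and 3.87 log2 on the wild-type arrays at 50 lux, and ran from 6.07 to 7.05 at 2500 lux and from 6.20 to 6.77 at 5000 lux. On the knockout arrays it ran from 4.19 to 4.64 at 50 lux, from 6.91 to 7.04 at 2500 lux and from 6.08 to 6.20 at 5000 lux. Members above log2 4 numbered 16 and 17 on the wild-type arrays at 50 lux and 22 to 23 on the knockout arrays at 50 lux. In bright light they numbered 34 to 36 in wild type, 37 in knockout at 2500 lux and 34 in knockout at 5000 lux. The filter that kept the members used the same limit, so these counts are partly fixed by it and are no independent support for a rise. Of the 37, 13 had no array at 50 lux above the limit and were kept through the bright-light arrays.

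**Figure D1:**
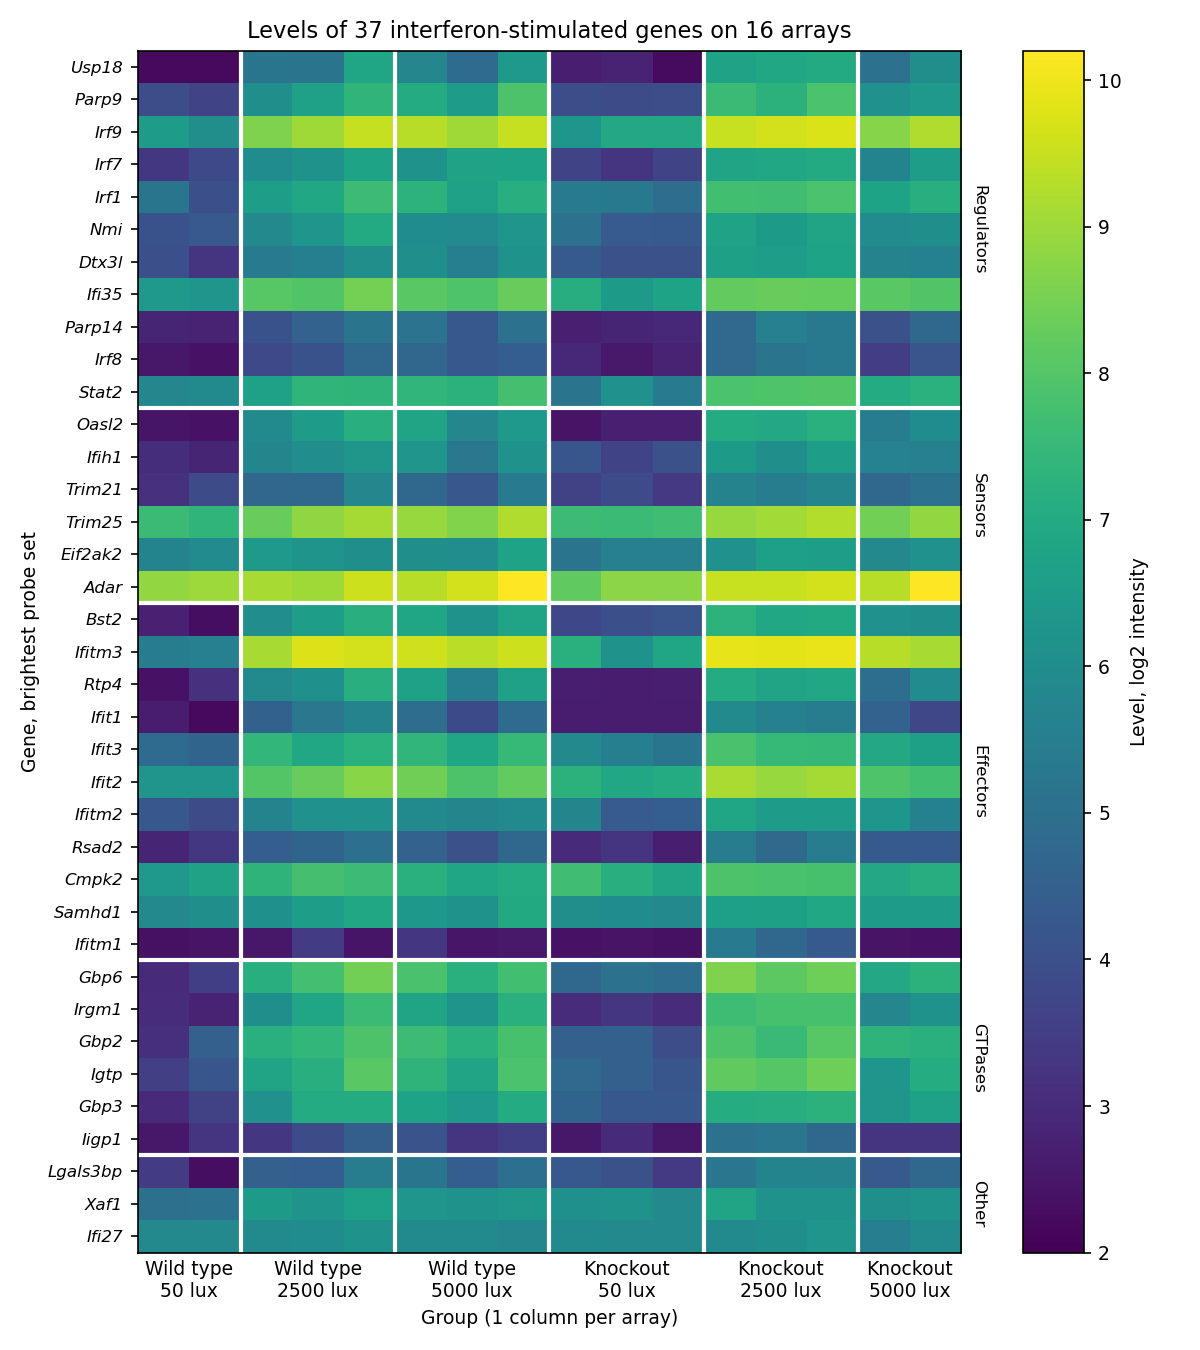
Level of each of the 37 kept members (rows, log2 intensity, brightest probe set) on each of the 16 arrays (columns, grouped by genotype and light dose); white lines part the groups and the role classes. The 5 columns at 50 lux are darker than the 11 bright-light columns in most rows, and the row of Ifitm1 is bright in the 3 knockout columns at 2500 lux.

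In wild type at 2500 lux, 31 of the 37 kept members were higher than at 50 lux and none was lower, at an adjusted p under 0.05 over all tested probe sets. Of all tested probe sets 6.72% were higher and 5.04% lower. The median log2 change was 2.07 for the members and 0.01 for all tested probe sets. At 5000 lux in wild type, 30 members were higher (of all tested, 5.97% were higher and 4.52% lower), with a median change of 2.00. In knockout, 35 members were higher at 2500 lux (of all tested, 8.60% higher and 10.7% lower) with a median of 2.40, and 28 at 5000 lux (of all tested, 5.54% higher and 5.88% lower) with a median of 1.50. No member was lower in any of the 4 responses. These counts cover the kept members only, and 13 of the 37 had no array above log2 4 at 50 lux, so that they were kept through the bright-light arrays. Of the 15 members above log2 4 on all 16 arrays, 11 and 10 were higher in wild type and 13 and 10 in knockout, at 2500 and 5000 lux. With every level under log2 4 raised to 4, the medians were 1.82 and 1.75 in wild type and 2.08 and 1.27 in knockout. Fitting only the 2 groups compared left 15 members higher in knockout at 5000 lux, and leaving out replicate 2 of knockout at 5000 lux left 17.

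**Figure D2:**
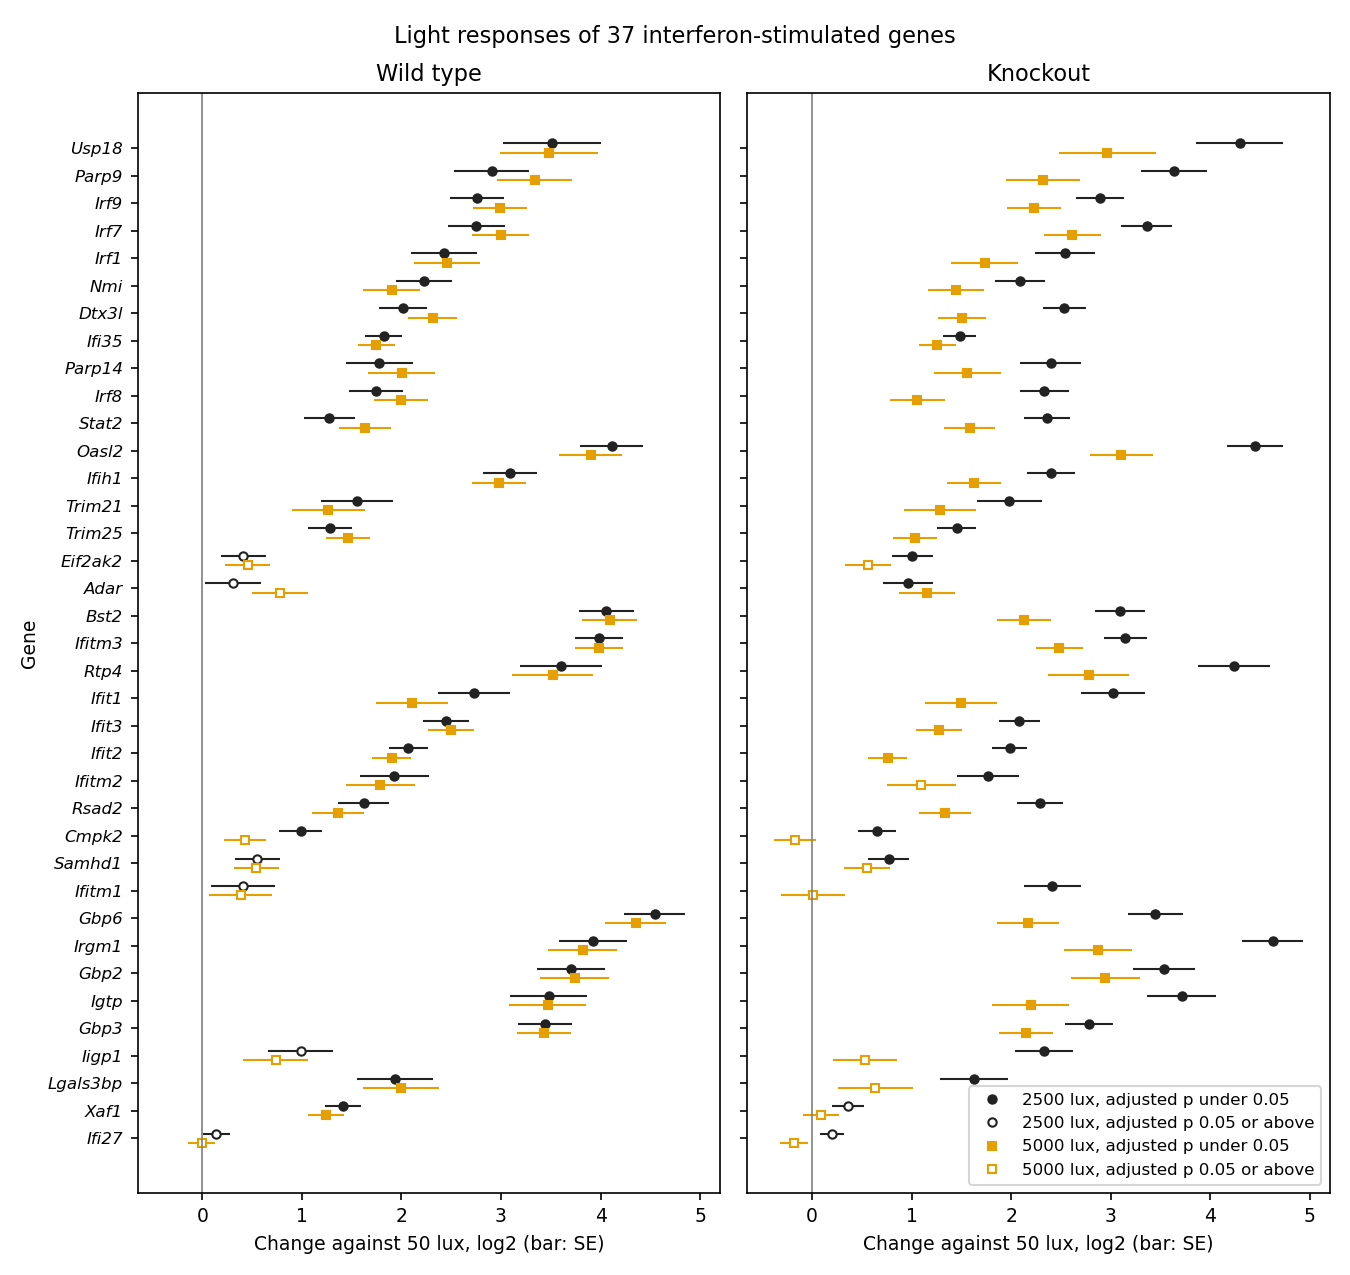
Log2 change against 50 lux (horizontal axis, bars show SE) of the 37 kept members, in role order, for wild type (left) and knockout (right), at 2500 lux (circles) and 5000 lux (squares); filled symbols have an adjusted p under 0.05. Filled symbols lie to the right of 0 in both panels, and the squares lie to the left of the circles for 36 members in knockout.

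All 11 kept regulators, the genes that carry or tune the signal, were higher in each of the 4 responses. Their median log2 changes were 2.23 and 2.31 in wild type and 2.53 and 1.58 in knockout at 2500 and 5000 lux. Of all tested probe sets, 6.72% and 5.97% were higher in wild type and 8.60% and 5.54% in knockout. Sp100 was not kept, and 5 of the 11 had no 50 lux array above log2 4 and were kept through the bright-light arrays. With levels under log2 4 raised to 4, Parp14 passed in knockout at 2500 lux only (adjusted p = 0.3 and 0.16 in wild type, 0.45 in knockout at 5000 lux). Usp18 encodes the protease that removes Isg15 from proteins and dampens signalling at Ifnar2. Its level was 2.21 and 2.21 log2 in wild type at 50 lux, 5.19, 5.16 and 6.82 at 2500 lux, and 5.79, 4.88 and 6.40 at 5000 lux. In knockout it was 2.67, 2.82 and 2.25 at 50 lux, 6.72, 6.91 and 7.00 at 2500 lux, and 5.05 and 6.04 at 5000 lux. No bright-light array of either genotype reached down to the 50 lux arrays of that genotype. Because every 50 lux array lay under log2 4, its fold is a lower bound, computed with those levels raised to 4, while the adjusted p beside a bound here and below is that of the unraised levels. Usp18 rose at least 3.30-fold in wild type at 2500 lux (fitted log2 change 3.52, SE 0.49, adjusted p = 0.00041) and at least 7.33-fold in knockout (4.29, SE 0.44, adjusted p = 1.8e-05). At 5000 lux it rose at least 3.23-fold and at least 2.92-fold, and the knockout call was lost without replicate 2 of that group (adjusted p = 0.052) and with all levels under log2 4 raised to 4 (0.055).

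Parp9, an ADP-ribosyltransferase partner that works with the ubiquitin ligase Dtx3l, lay at 3.93 and 3.69 log2 in wild type at 50 lux, 6.07, 6.69 and 7.38 at 2500 lux, and 7.05, 6.49 and 7.90 at 5000 lux. In knockout it lay at 3.98, 3.89 and 3.96 at 50 lux, 7.60, 7.27 and 7.87 at 2500 lux, and 6.13 and 6.39 at 5000 lux. Its rise was at least 6.57-fold and at least 8.85-fold in wild type, and at least 12.0-fold and at least 4.80-fold in knockout, at 2500 and 5000 lux. Stat2, a subunit of the ISRE-binding complex, had the smallest change of the regulators in wild type at 2500 lux. It lay at 5.79 and 5.90 log2 at 50 lux, 6.69, 7.35 and 7.32 at 2500 lux, and 7.39, 7.28 and 7.77 at 5000 lux. The Stat2 rise was 2.42-fold (log2 change 1.28, SE 0.26, adjusted p = 0.0058) and 3.10-fold. Without replicate 1 of wild type at 50 lux the first had an adjusted p of 0.063. In knockout Stat2 lay at 5.17, 6.13 and 5.40 at 50 lux, 7.87, 7.94 and 7.97 at 2500 lux, and 7.06 and 7.24 at 5000 lux, a rise of 5.13-fold and 3.00-fold. Irf9, its DNA-binding partner, rose 6.78-fold and 7.96-fold in wild type and 7.44-fold and 4.69-fold in knockout.

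Among the interferon regulatory factors, Irf1 is an early activator that interferon gamma induces through its GAS. It lay at 5.17 and 4.01 log2 in wild type at 50 lux, 6.56, 6.89 and 7.61 at 2500 lux, and 7.29, 6.69 and 7.16 at 5000 lux. The knockout arrays gave 5.39, 5.30 and 4.94, then at 7.71, 7.69 and 7.87, then at 6.76 and 7.14. The 2 wild-type 50 lux arrays stood 1 log2 unit or more apart, and all bright-light arrays lay above both. Irf1 rose 5.39-fold and 5.49-fold in wild type (log2 changes 2.43 and 2.46, SE 0.33, adjusted p = 0.00037 and 0.00033). It rose 5.83-fold and 3.32-fold in knockout, and without replicate 2 of knockout at 5000 lux the last value had an adjusted p of 0.088. Irf7, the amplifier of the type I response, rose at least 5.01-fold and 5.94-fold in wild type and at least 7.46-fold and 4.45-fold in knockout. Irf8, a factor of microglia and macrophages, rose at least 1.16-fold and 1.38-fold in wild type and at least 2.13-fold in knockout at 2500 lux. In knockout at 5000 lux its log2 change was 1.06 (adjusted p = 0.026), and both means were under log2 4. With levels under log2 4 raised to 4, Irf8 passed in neither wild-type response (0.28 and 0.47, adjusted p = 0.47 and 0.21) nor in knockout at 5000 lux (0.08, adjusted p = 0.84). The last call was also lost without replicate 2 of knockout at 50 lux (adjusted p = 0.06) or at 5000 lux (0.27).

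Of the 10 listed sensors of foreign nucleic acid and their modifiers, 6 were kept, while Oasl1, Oas1a, Dhx58 and Zbp1 were not. Of the 6 kept, 2 had no 50 lux array above log2 4. In wild type 4 of the 6 were higher at each dose, and in knockout 6 at 2500 lux and 5 at 5000 lux. The shares higher among all tested probe sets were 6.72% and 5.97% in wild type and 8.60% and 5.54% in knockout. Oasl2, of the 2′-5′ oligoadenylate synthetase family, lay at 2.46 and 2.39 log2 in wild type at 50 lux, 5.94, 6.53 and 7.15 at 2500 lux, and 6.77, 5.78 and 6.43 at 5000 lux. Knockout levels were 2.43, 2.72 and 2.72 at 50 lux, 7.04, 6.96 and 7.21 at 2500 lux, and 5.48 and 5.98 at 5000 lux. The bright-light arrays stood clear of the 50 lux arrays in both genotypes. Oasl2 rose at least 5.81-fold (fitted log2 change 4.11, SE 0.31, adjusted p = 2.6e-06) and at least 5.02-fold in wild type, and at least 8.41-fold and at least 3.31-fold in knockout. Ifih1, the cytosolic sensor of long double-stranded RNA also called MDA5, lay at 3.06 and 2.84 log2 in wild type at 50 lux, 5.77, 6.02 and 6.35 at 2500 lux, and 6.28, 5.29 and 6.23 at 5000 lux. In knockout it lay at 4.20, 3.69 and 4.05, then at 6.47, 6.10 and 6.56, then at 5.63 and 5.59. Its rise was at least 4.13-fold and 3.82-fold in wild type, and 5.28-fold and 3.09-fold in knockout. Trim21 and Trim25, ubiquitin ligases of the sensing pathways, were higher in each response, Trim25 by 2.43-fold and 2.76-fold in wild type and 2.74-fold and 2.05-fold in knockout. The Trim25 call in knockout at 5000 lux was lost with array weights (adjusted p = 0.069) and with only the groups compared (0.094). The latter fit also took its wild-type call at 2500 lux to 0.056. A further Trim25 probe set passed in each response, and another in knockout at 2500 lux only (adjusted p = 0.2 to 0.66 elsewhere). The Trim21 changes were 1.56 and 1.27 log2 in wild type (adjusted p = 0.014 and 0.041) and 1.98 and 1.28 in knockout (adjusted p = 0.00082 and 0.038). Its wild-type call at 2500 lux was lost without replicate 1 of wild type at 50 lux (adjusted p = 0.17), and that at 5000 lux without either wild-type array at 50 lux (0.37 and 0.059) or replicate 1 or 3 at 5000 lux (0.076 and 0.15). A fit with the replicate number as a block also took the latter to 0.055. Its knockout call at 5000 lux was lost without replicate 1 or 3 of knockout at 50 lux (0.089 and 0.086) or replicate 2 at 5000 lux (0.26). With levels under log2 4 raised to 4, none of these 3 calls passed (0.051, 0.16 and 0.088). A second Trim21 probe set passed in knockout at 2500 lux (0.79, adjusted p = 0.022) and in no other response (adjusted p = 0.069 to 0.55).

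The remaining sensors answered less uniformly. Adar, the enzyme that edits adenosine in double-stranded RNA, lay at 8.87 and 8.99 log2 in wild type at 50 lux, 9.13, 9.03 and 9.56 at 2500 lux, and 9.31, 9.66 and 10.17 at 5000 lux. Those differences of 0.31 and 0.78 log2 had adjusted p of 0.55 and 0.1. In knockout Adar lay at 8.21, 8.78 and 8.79 at 50 lux, 9.51, 9.52 and 9.63 at 2500 lux, and 9.31 and 10.18 at 5000 lux, a rise of 1.95-fold (adjusted p = 0.017) and 2.23-fold (adjusted p = 0.021). The first call had an adjusted p of 0.071 without replicate 1 of knockout at 50 lux and 0.061 without replicate 3 at 2500 lux. The second had 0.072 without replicate 1 at 50 lux and 0.26 without replicate 2 at 5000 lux. A further Adar probe set showed -0.04 (adjusted p = 0.91) at 5000 lux in knockout, and another showed 0.84 (adjusted p = 0.0077). At 2500 lux in knockout the former showed 0.33 (adjusted p = 0.14) and the latter 1.11 (adjusted p = 0.00017). Eif2ak2, the kinase PKR that stops translation on double-stranded RNA, lay at 5.69 and 5.97 in wild type at 50 lux and between 6.02 and 6.76 in bright light, with differences of 0.41 and 0.46 (adjusted p = 0.29 and 0.25). It rose 2.01-fold in knockout at 2500 lux (adjusted p = 0.0036) and differed by 0.56 at 5000 lux (adjusted p = 0.12). Its second probe set passed in wild type, with log2 changes of 1.78 (adjusted p = 0.011) and 1.49 (adjusted p = 0.029), so the wild-type call for Eif2ak2 depends on the probe set.

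The 11 kept antiviral effectors included 9 that were higher in wild type at 2500 lux, 8 at 5000 lux, and 11 and 7 in knockout. Among all tested probe sets, 6.72% and 5.97% were higher in wild type and 8.60% and 5.54% in knockout. Mx1 and Mx2 were not kept, and 4 of the 11 had no 50 lux array above log2 4. Ifitm3, a membrane protein that blocks virus entry from endosomes, was above log2 4 on all 16 arrays, so its folds are measured on both sides. It lay at 5.49 and 5.56 in wild type at 50 lux, 9.13, 9.76 and 9.65 at 2500 lux, and 9.60, 9.35 and 9.59 at 5000 lux. Its knockout arrays stood at 7.19, 6.19 and 6.87 at 50 lux, 9.90, 9.87 and 9.92 at 2500 lux, and 9.33 and 9.14 at 5000 lux. The bright-light arrays of both genotypes lay within 1 log2 unit of each other, while the knockout 50 lux arrays all lay above the wild-type ones. Ifitm3 rose 15.9-fold at both doses in wild type (log2 change 3.99, SE 0.24, adjusted p = 3e-07 and 3.1e-07), and 8.87-fold and 5.60-fold in knockout.

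Bst2, or tetherin, which holds budding virus at the cell surface, lay at 2.75 and 2.31 log2 in wild type at 50 lux, 6.03, 6.58 and 7.15 at 2500 lux, and 6.84, 6.23 and 6.79 at 5000 lux. The levels in knockout were 3.79, 3.99 and 4.16, then at 7.30, 6.93 and 6.99, then at 6.14 and 6.08. Bst2 rose at least 6.01-fold and at least 6.14-fold in wild type (fitted log2 changes 4.06 and 4.09, SE 0.28), and 8.53-fold and 4.37-fold in knockout. A bound and a measured fold cannot be ranked against each other, and the Bst2 changes are compared on the fitted scale below. Rtp4, a chaperone-like protein with antiviral action, rose at least 5.24-fold and 4.94-fold in wild type and at least 7.57-fold and 2.75-fold in knockout. Ifit3, of the family that binds viral RNA ends, rose 5.45-fold and 5.65-fold, and 4.23-fold and 2.42-fold.

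Other effectors missed the threshold in some responses. Ifitm2 rose 3.81-fold and 3.46-fold in wild type and 3.40-fold in knockout at 2500 lux, and differed by 1.10 log2 in knockout at 5000 lux (adjusted p = 0.058). Without replicate 2 of wild type at 50 lux its 5000 lux response had an adjusted p of 0.061, and without replicate 1 of knockout at 50 lux the knockout response at 5000 lux had 0.0023. With the replicate block the knockout response at 5000 lux passed (1.06, adjusted p = 0.042). Cmpk2, a mitochondrial nucleotide kinase next to Rsad2, lay at 6.45 and 6.74 in wild type at 50 lux, 7.33, 7.79 and 7.63 at 2500 lux, and 7.19, 6.84 and 7.04 at 5000 lux. It rose 1.98-fold in wild type at 2500 lux (adjusted p = 0.0087, and 0.11 without replicate 1 of wild type at 50 lux) and differed by 0.43 at 5000 lux (adjusted p = 0.25). In knockout Cmpk2 rose 1.57-fold at 2500 lux (adjusted p = 0.029), and 5 of 6 left-out arrays took that p to between 0.07 and 0.12. Its change at 5000 lux in knockout was -0.17 (adjusted p = 0.63), and its second probe set showed 0.14 (adjusted p = 0.66). That second Cmpk2 probe set passed in no response. At 2500 lux it showed 0.24 (adjusted p = 0.5) in wild type and 0.51 (adjusted p = 0.059) in knockout, so both Cmpk2 calls depend on the probe set. Samhd1, which degrades the nucleotides that viruses need, passed in knockout at 2500 lux (1.71-fold, adjusted p = 0.018). Its differences were 0.55 and 0.54 in wild type (adjusted p = 0.14 and 0.17) and 0.55 in knockout at 5000 lux (adjusted p = 0.13, and 0.04 with the replicate block). The Samhd1 call was lost without replicate 3 of knockout at 50 lux (adjusted p = 0.062) or at 2500 lux (0.075), while without replicate 1 of wild type at 2500 lux the wild-type response passed (0.034).

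The interferon-induced GTPases, which attack the vacuoles of intracellular pathogens, had the largest median fitted change of the roles in wild type, 3.59 and 3.61 log2 at 2500 and 5000 lux. All 6 kept GTPases had means under log2 4 in wild type at 50 lux, so this ranks fitted changes and not measured folds. In knockout their medians were 3.49 and 2.18. Gbp6, a guanylate-binding protein, lay at 2.99 and 3.51 log2 in wild type at 50 lux, 7.18, 7.75 and 8.44 at 2500 lux, and 7.86, 7.22 and 7.72 at 5000 lux. In knockout its level was 4.77, 5.10 and 4.94 at 50 lux, 8.63, 8.14 and 8.39 at 2500 lux, and 6.95 and 7.27 at 5000 lux. All knockout arrays lay above the wild-type arrays at 50 lux, while the genotypes overlapped at 2500 and at 5000 lux. Gbp6 rose at least 13.8-fold and at least 12.1-fold in wild type (fitted log2 changes 4.54 and 4.35, SE 0.31), and 10.9-fold and 4.50-fold in knockout (3.45, SE 0.27, and 2.17, SE 0.31).

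Irgm1, an immunity-related GTPase that guards the cell's own membranes, lay at 3.05 and 2.80 log2 in wild type at 50 lux, 6.09, 6.85 and 7.59 at 2500 lux, and 6.78, 6.24 and 7.21 at 5000 lux. Knockout arrays read 3.05, 3.31 and 3.05, then at 7.66, 7.81 and 7.81, then at 5.81 and 6.20. It rose at least 7.18-fold and 6.69-fold in wild type and at least 13.6-fold and 4.02-fold in knockout. Gbp2 rose 13.0-fold and 13.4-fold in wild type and 11.6-fold and 7.71-fold in knockout. Its 2 wild-type 50 lux arrays lay at 3.11 and 4.51, and leaving out either one moved the 2500 lux change to 3.01 or 4.40 log2 and the 5000 lux change to 3.05 or 4.44. Iigp1, a GTPase of the same family as Irgm1, lay at 2.54 and 3.25 in wild type at 50 lux, 3.28, 3.90 and 4.47 at 2500 lux, and 4.10, 3.28 and 3.51 at 5000 lux. In knockout retinas it was at 2.54, 3.01 and 2.54, then at 5.11, 5.21 and 4.78, then at 3.23 and 3.23. Iigp1 passed in knockout at 2500 lux, with a rise of at least 2.04-fold (adjusted p = 9.7e-05), and had adjusted p of 0.068, 0.19 and 0.29 in the other responses. Its second probe set passed in wild type at 2500 lux (1.46, adjusted p = 0.041), as did the first without replicate 1 of that group (1.29, adjusted p = 0.017).

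Of the 3 kept members outside these roles, Lgals3bp, a secreted glycoprotein that binds galectins, rose at least 1.75-fold and 1.82-fold in wild type and 3.09-fold in knockout at 2500 lux, and differed by 0.64 log2 at 5000 lux (adjusted p = 0.28). Its 2 wild-type 50 lux arrays lay at 3.43 and 2.31, and without the second the wild-type responses had adjusted p of 0.09 and 0.078. With levels under log2 4 raised to 4 they had 0.091 and 0.077. Ifi27 lay between 5.50 and 6.28 log2 on all 16 arrays and passed in no response, with changes from -0.18 to 0.20 (adjusted p = 0.27 to 0.99). Its second probe set also passed in none. Xaf1, a promoter of apoptosis that binds the inhibitor XIAP, is described with the genotype comparison.

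The step from 2500 to 5000 lux was small in wild type and downward in knockout. In wild type, 21 of 37 members had a change below 0 (49.7% of all tested probe sets did), the median was -0.01, and by limma none passed (0% of all tested). At an unadjusted p under 0.05 there was 1 member, and 8.22% of all tested probe sets. The smallest p belonged to Cmpk2 (-0.56, adjusted p = 0.59), Ifit1 (-0.63, adjusted p = 0.62) and Adar (0.47, adjusted p = 0.62). In knockout, 36 of 37 members were lower at 5000 than at 2500 lux with no overlap between the groups, and so were 14.8% of all tested probe sets. The median change was -0.81 for the members, and of all tested probe sets 48.5% had a change below 0. An unadjusted p under 0.05 was found for 28 members and for 12.7% of all tested probe sets. After adjustment 2 members passed, while of all tested probe sets 0.0729% were lower and 0.00429% higher. Adar was the exception, with a change of 0.19. The knockout at 5000 lux had 2 arrays.

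Both members that passed were antiviral effectors. Ifit2, which binds viral RNA and can drive apoptosis, lay at 7.27, 6.92 and 7.06 log2 in knockout at 50 lux, 9.16, 8.94 and 9.11 at 2500 lux, and 7.95 and 7.73 at 5000 lux. It fell by 1.23 log2 between the doses (2.34-fold, SE 0.20, adjusted p = 0.036). In wild type it lay at 6.27 and 6.29, then at 8.02, 8.30 and 8.73, then at 8.41, 7.92 and 8.23. The Ifit2 response against 50 lux was 4.20-fold and 3.75-fold in wild type and 3.96-fold and 1.69-fold in knockout (adjusted p = 0.026 for the last). The step was not past the threshold without any one of the knockout arrays at 2500 lux (adjusted p = 0.11, 0.1 and 0.16 without replicates 1, 2 and 3) or without replicate 2 at 5000 lux (0.28). The 1.69-fold response was lost without replicate 2 or 3 of knockout at 50 lux (adjusted p = 0.06 and 0.052) and without either array at 5000 lux (0.087 and 0.099).

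Ifitm1, the family member next to Ifitm3, exceeded log2 4 on the 3 knockout arrays at 2500 lux and nowhere else. Those arrays lay at 5.36, 4.78 and 4.32. It was thus kept for testing through the group in which it was high, so the values that kept it are also those tested, and its calls are no independent support. The other knockout arrays lay between 2.38 and 2.44, and the wild-type arrays between 2.38 and 3.42. Ifitm1 rose at least 1.76-fold over 50 lux in knockout at 2500 lux (fitted log2 change 2.41, SE 0.29, adjusted p = 6.3e-05), and had changes of 0.41, 0.39 and 0.01 in the other responses (adjusted p = 0.48, 0.54 and 0.99). It fell by at least 1.76-fold from 2500 to 5000 lux in knockout (fitted change -2.40, SE 0.32, adjusted p = 0.016). That call was lost without replicate 2 of knockout at 2500 lux (adjusted p = 0.059) or at 5000 lux (0.16), with no filter (0.054), with array weights (0.11), and with levels under log2 4 raised to 4 (-0.82, adjusted p = 0.15). Iigp1 (-1.80, adjusted p = 0.064) and Irgm1 (-1.75, adjusted p = 0.081) had the next smallest p in the step and did not pass.

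**Figure D3:**
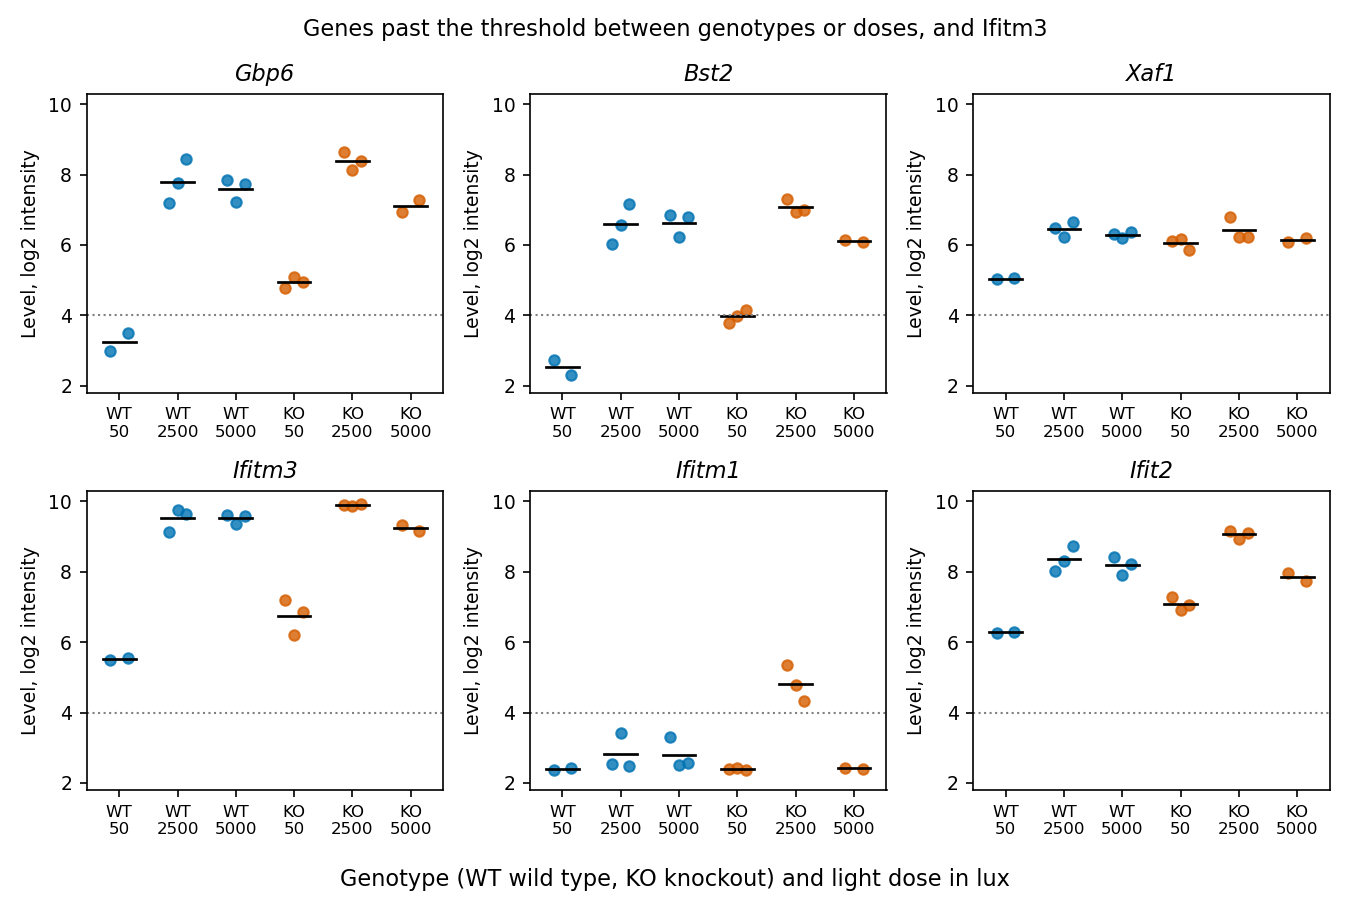
Level on each array (points, log2 intensity) and group mean (black bars) of the 5 members past the threshold in a genotype or dose-step comparison, and of Ifitm3, by genotype and light dose (wild type blue, knockout orange); the dotted line is log2 4. Ifitm1 lies above that line on the 3 knockout arrays at 2500 lux alone, and the knockout points of Gbp6, Bst2, Xaf1 and Ifitm3 lie above the wild-type points at 50 lux.

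Between genotypes at 50 lux, before any bright light, Xaf1, Gbp6 and Bst2 were higher in knockout. By limma, 3 of 37 members were higher and none was lower, while of all tested probe sets 0.206% were higher and 0.120% lower, and the median difference was 0.37 log2. Xaf1 lay at 5.02 and 5.06 log2 in wild type and at 6.12, 6.18 and 5.86 in knockout at 50 lux, a 2.02-fold difference (log2 1.01, SE 0.18, adjusted p = 0.037). Gbp6 was at least 1.92-fold higher (fitted 1.69, SE 0.31, adjusted p = 0.041). Bst2 differed by 1.45 log2 (SE 0.28, adjusted p = 0.047), and both groups had means under log2 4. Ifitm3 had the next smallest p, with a 2.34-fold difference (1.23, SE 0.24, adjusted p = 0.057). In each of these 4 genes the knockout arrays lay above the wild-type arrays with no overlap, as did 21.4% of all tested probe sets. The calls rest on 2 wild-type arrays, and without replicate 1 or 2 of wild type or replicate 1 of knockout none of the 3 passed, with adjusted p of 0.12 to 0.53. Without replicate 3 of knockout Xaf1 alone passed. Adding a pseudocount of 16 to each intensity also left none, and raising levels under log2 4 to 4 left Xaf1 alone, with a median difference of 0.05. The replicate block left 1. With the mean of both Gbp6 probe sets the Gbp6 difference was 0.91 (adjusted p = 0.13).

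The levels of Xaf1 overlapped between genotypes in bright light, unlike at 50 lux. It lay at 6.48, 6.24 and 6.64 log2 at 2500 lux and 6.31, 6.19 and 6.36 at 5000 lux in wild type, and at 6.80, 6.21 and 6.22, then 6.08 and 6.20, in knockout. Xaf1 rose 2.66-fold and 2.37-fold in wild type (adjusted p = 0.00018 and 0.00049). In knockout it differed by 1.29-fold and 1.07-fold (adjusted p = 0.13 and 0.77).

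At 2500 lux the knockout values were mostly above wild type, and at 5000 lux mostly below. At 2500 lux, 36 of 37 members had a positive difference (46.4% of all tested probe sets did), with a median of 0.53 log2 that was 0.34 without replicate 1 of wild type at 2500 lux. Ifitm1 passed (at least 1.76-fold higher, fitted 2.01, SE 0.29, adjusted p = 0.02), while of all tested probe sets 0.0815% were higher and 0.0129% lower. Dtx3l (1.02, adjusted p = 0.17), Ifit2 (0.72, adjusted p = 0.32) and Iigp1 (1.15, adjusted p = 0.37) followed and did not pass. The Ifitm1 call was lost without replicate 1 of wild type at 2500 lux (adjusted p = 0.14), replicate 1 of knockout (0.065) or replicate 2 of knockout (0.1), with no filter (0.088), and with levels under log2 4 raised to 4 (0.82, adjusted p = 0.19). Without replicate 3 of wild type 3 members passed. At 5000 lux, 33 of 37 members had a negative difference (50.0% of all tested probe sets did) with a median of -0.32, and by limma none passed, while of all tested probe sets 0% were higher and 0.00429% lower. Irf8 (-0.65), Parp9 (-0.88) and Irgm1 (-0.74) had the smallest p, each with an adjusted p of 1.0. Irf8 and Parp9, with unadjusted p of 0.0325 and 0.0343, were the 2 members under 0.05 before adjustment, as were 2.32% of all tested probe sets.

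**Figure D4:**
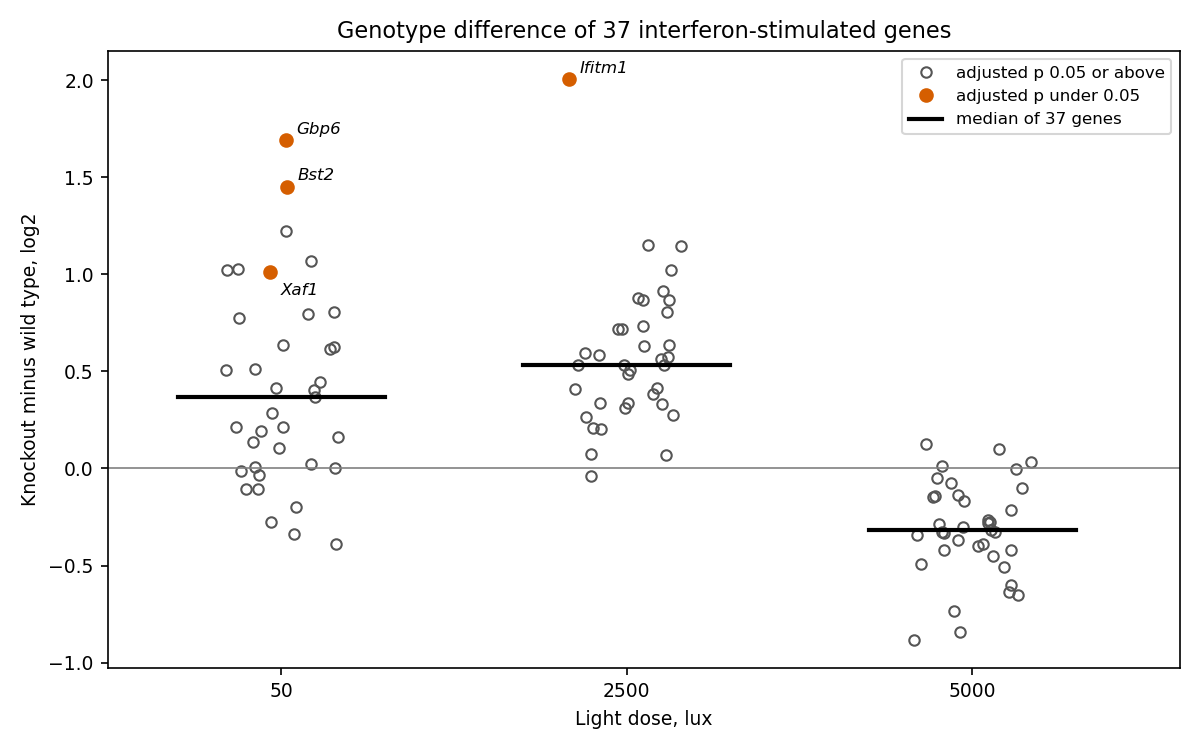
Knockout minus wild type (vertical axis, log2) of the 37 kept members at each light dose (horizontal axis, lux; points are spread sideways for visibility); black bars are medians and filled points have an adjusted p under 0.05. The medians are 0.37, 0.53 and -0.32, and the 4 filled points are Xaf1, Gbp6 and Bst2 at 50 lux and Ifitm1 at 2500 lux.

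Whether the light response itself differed between genotypes was tested with interaction contrasts, and no member passed in any. At 2500 lux the median difference of the responses was 0.22 log2. It was -0.01 without replicate 1 of wild type at 2500 lux, 0.41 without replicate 3 of that group, and 0.46 with levels under log2 4 raised to 4, so it has no settled size or sign. An unadjusted p under 0.05 was found for 7 members and for 9.13% of all tested probe sets, of which 0.0472% passed after adjustment. The smallest p belonged to Ifitm1 (2.00, SE 0.43, adjusted p = 0.2), Xaf1 (-1.05, SE 0.24, adjusted p = 0.22) and Stat2 (1.08, SE 0.35, adjusted p = 0.41). At 5000 lux the median was -0.72, and -0.44 with levels under log2 4 raised to 4. There 12 members and 8.18% of all tested probe sets had an unadjusted p under 0.05, and 0.0257% of all tested passed after adjustment. Gbp6 (-2.18, SE 0.43, adjusted p = 0.16), Bst2 (-1.96, SE 0.39, adjusted p = 0.16) and Xaf1 (-1.15, SE 0.25, adjusted p = 0.24) led there. Without replicate 2 of knockout at 50 lux, 1 member passed.

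For the mean of both bright doses, 8 members and 10.1% of all tested probe sets had an unadjusted p under 0.05, and 0.0643% of all tested passed after adjustment. Xaf1 (-1.10, adjusted p = 0.13), Gbp6 (-1.64, adjusted p = 0.2) and Bst2 (-1.46, adjusted p = 0.21) had the smallest p. Array weights, or leaving out replicate 2 of knockout at 50 lux or replicate 1 of knockout at 2500 lux, gave 1 member past the threshold. The genotype difference in the step from 2500 to 5000 lux, a contrast added after results were known, was below 0 for 37 of 37 members and for 47.9% of all tested probe sets, with a median of -0.90 for the members. In it 17 members and 4.85% of all tested probe sets had an unadjusted p under 0.05, while after adjustment no member and 0.00858% of all tested passed. Ifitm1 (-2.38, adjusted p = 0.21), Irf8 (-1.53, adjusted p = 0.42) and Dtx3l (-1.32, adjusted p = 0.43) led that contrast. These contrasts share arrays with each other and with the comparisons above, so their values are not independent of them. The members were also read on the same arrays and are not replicates of a condition. A count of members on 1 side of 0, here and above, is therefore a description and not a test.

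Of 43 further genes of the interferon pathway, which are not members, 17 had a kept probe set. The ligands Ifnb1 and Ifng lay at the lowest levels on every array, with highest values of 2.22 and 2.21 log2, and 5 interferon alpha genes were likewise not kept. In wild type, 6 of 17 were higher at 2500 lux and 6 at 5000 lux, as were 6.72% and 5.97% of all tested probe sets. The receptor chain Ifnar2 rose 3.40-fold (adjusted p = 0.0052) and 2.95-fold, and Myd88, the adaptor of Toll-like receptors, 5.90-fold and 5.50-fold. Ddx58, the RNA sensor RIG-I, rose 2.79-fold and 2.69-fold. Il10rb, a chain of the interferon lambda receptor, rose 2.28-fold and 1.94-fold, and the phosphatase Ptpn2 1.81-fold and 1.78-fold. The endosomal sensor Tlr3 rose at least 1.93-fold and 1.48-fold. In knockout at 2500 lux, 5 were higher, namely Ifnar2 (2.44-fold), Ptpn2 (1.78-fold), Ddx58 (5.81-fold), Myd88 (2.84-fold) and the kinase Tbk1 (1.24-fold), and Irf3 was lower by 1.70-fold (adjusted p = 0.0084). At 5000 lux, Ptpn2 (1.72-fold), Ddx58 (2.18-fold, adjusted p = 0.049) and Tbk1 (1.31-fold) were higher. Among all tested probe sets in knockout, 8.60% were higher and 10.7% lower at 2500 lux, and 5.54% were higher at 5000 lux. Ifnar1, Ifngr1 and Ifngr2 passed in no response, with changes of -0.35 to 0.66, -0.33 to 0.16 and -0.69 to -0.04.

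Markers of cells that answer or carry interferon signals were set beside the members. None of the 9 measured T and NK cell markers was kept, and their summed intensity was 45.2 to 47.3 on all arrays. Of 18 microglia and macrophage markers 11 were kept, while Aif1, P2ry12, Tmem119, Itgam, Ptprc, C1qc and Trem2 were not. Summed over all 18, kept or not, intensity was 711 to 728 in wild type at 50 lux, 1018 to 1177 at 2500 lux and 720 to 1263 at 5000 lux. In knockout it was 1039 to 1363, 916 to 1191 and 602 to 1143. In wild type 5 and 3 of the 11 were higher, and in knockout 2 were higher and 1 lower at each dose. Over the 11, the log2 changes in wild type ran from 0.01 to 2.54 at 2500 lux (median 0.85) and from -0.21 to 2.90 at 5000 lux (median 0.21). In knockout they ran from -1.11 to 2.96 (median 0.27) and from -1.03 to 2.29 (median 0.09). Cd68, 1 of these markers, rose in each response, by at least 2.31-fold and 2.97-fold in wild type and at least 4.43-fold and 2.78-fold in knockout. At 50 lux, where 3 members were higher in knockout, the median microglial marker difference was 0.64 log2 and none of the 11 passed. Of 8 endothelial markers 5 were kept. Summed over all 8, intensity was 567 to 602 in wild type at 50 lux and 898 to 1287 in bright light, and 661 to 883 and 992 to 1134 in knockout. Sums of the pigment epithelium markers were 9655 to 13460 in wild type and 6067 to 12140 in knockout at 50 lux, and 3077 to 9832 in bright light. Summed Müller glia markers ran from 21200 to 26260 over all arrays. Of these 8 markers, 3 were higher and 2 lower in each wild-type response, and 2 higher and 2 lower in each knockout response. At 2500 and 5000 lux, 5 and 5 of the 8 photoreceptor markers were lower in wild type, and 7 and 4 in knockout. Of 7 kept pigment epithelium markers, 1 and 6 were lower in wild type, and 1 and 0 in knockout. The shares of all tested probe sets are those given above for each response. The part of these cells in the members' changes was not tested.

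Further probe sets gave a second reading for part of the set. In all, 13 kept members had another tested probe set, 17 in number. Of these 17, 17 and 16 had the sign of the brightest one in wild type at 2500 and 5000 lux, and 17 and 15 in knockout. Past the threshold were 7 and 7 in wild type and 13 and 7 in knockout. The genes whose probe sets differed in sign were Ifi27 in wild type at 5000 lux, and Adar and Cmpk2 in knockout at 5000 lux.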

How the data were processed

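The 16 arrays were compared as intensity values, 1 per probe set, deposited by the authors on a linear scale. GCRMA, a background correction and summary method, is named in the submitters' processing notes, and its version is not stated there. No counting depth exists for arrays, and their number limits the precision. Log2 was taken, and the 23320 of 45037 probe sets above log2 4 on at least 2 arrays were fitted in limma 3.58.1 (R 4.3.3) with 6 group means, empirical Bayes moderation without an intensity trend, and 10 residual degrees of freedom. Each comparison was a contrast. The p-values of a contrast were adjusted by Benjamini and Hochberg's method across all probe sets tested, with a threshold of 0.05, and SE comes from the model. Where every array of 1 group lay at or below log2 4, a fold is a lower bound with those values raised to 4, and no fold is given where both means lay below it. The fit was tested on simulated data. Probe sets were named by the platform annotation, and those with several symbols were not used.

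Named were, per role, the 2 members with the largest and the 1 with the smallest change at 2500 lux in wild type, members that missed the threshold in a light response, members that passed elsewhere or the 3 with the smallest p there, and members whose probe sets disagreed in direction. Rtp4, Ifit3, Trim21, Trim25, Gbp2, Irf1, Irf7, Irf8 and Irf9 were added for their roles after their values were seen. Of other pathway genes, those that passed in a light response were named, with the receptors and main ligands. The members and lists were chosen with earlier results of these data known. Alternatives covered centring, quantile normalization, the filter, a floor, a pseudocount, an intensity trend, array weights, fewer groups, other probe set choices, a replicate block and leaving out each array. Some items are not reported here.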

Additional observations from a re-analysis of the deposited data

How the results depend on the processing

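Under all settings tried, no member's change that had passed reversed its direction. The tally took all kept members in the 4 light responses, but only the members that had passed in the other comparisons. Of these member values, 2487 stayed on the same side of the threshold, 150 lost it and 13 gained it. Members that gained it in the other comparisons are outside this tally and appear in the counts below. The number higher was 26 to 33 in wild type at 2500 lux (31 as reported; 28 to 33 without 1 array), 24 to 33 at 5000 lux (30; 27 to 30) and 32 to 35 in knockout at 2500 lux (35; 32 to 34). In knockout at 5000 lux (28) it was 15 with only the groups compared fitted, and 17 to 26 without 1 array. Called under every setting were 23 of 31, 23 of 30, 32 of 35 and 13 of 28 members. For the knockout step from 2500 to 5000 lux (2), the count was 0 with no filter, with array weights and with only the groups compared, 1 with a filter at log2 5 and with the replicate block, 5 with the mean of all probe sets of a gene, and 0 to 2 without 1 array. For knockout against wild type at 50 lux (3), it was 0 with no filter, with a pseudocount of 16 and with only the groups compared, 1 with levels raised to log2 4 and with the replicate block, and 0 to 4 without 1 array. At 2500 lux (1), it was 0 with no filter, with the filter at log2 5 and with only the groups compared, 1 with levels raised to log2 4 (a member other than Ifitm1), and 0 to 3 without 1 array. The genotype difference of the 5000 lux response gave 0 to 1 without 1 array, and that of the mean response gave 1 with array weights and 0 to 1 without 1 array. The filter and the smaller fits change how many probe sets or arrays are tested; otherwise the cause was not tested. Same-numbered arrays of different groups had correlations of -0.238 to 0.693 in their deviations from the group means, with 21 of 36 over 0.1. Between wild type and knockout at 5000 lux they were 0.693 and 0.471, and what they come from was not tested. The labels do not say that the numbers pair arrays, so the main fit had no block. With the replicate block the 4 light responses gave 31, 29, 35 and 30 members. Groups of 2 or 3 arrays and levels near the lowest intensity of 4.62 limit the precision of the genotype comparisons.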
